A study of Mus musculus with 23 samples.

Results

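Disease-associated microglia genes are a set of 10 genes that mark the state microglia enter around plaques, dying neurons and damaged myelin: Trem2, Tyrobp, Cst7, Itgax, Clec7a, Spp1, Axl, Cd9, Gpnmb and Lgals3. They were chosen by symbol and by no threshold on a measured value, and all 10 were found among the 35976 genes of the deposited count table. Their levels were read in 23 RNA libraries of microglia, the resident macrophages of the brain, taken from the striatum. All came from C57BL/6J males, with an age given as 9 weeks in every group. The mice pressed a lever for intravenous infusions in 15 daily sessions of 2 hr. The Saline group (8 libraries) received saline. The Maintenance group (8 libraries) received methamphetamine, a psychostimulant that releases dopamine, at 0.05 mg/kg per infusion. Both were collected as soon as the final session ended. The Abstinence group (7 libraries) self-administered methamphetamine on the same schedule and was collected after 21 further days in the home cage. As the same 9 weeks is given for it, that age cannot be taken as the age at collection in every group. No saline group was kept through those 21 days, so abstinence and the later time of collection cannot be told apart in Abstinence against Saline or in Abstinence against Maintenance. The labels do not say whether a library is 1 animal or several, and p-values here reflect only how these libraries varied.

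TREM2 is a lipid-sensing receptor on the microglial surface that has no signalling tail of its own and works through the adapter TYROBP (DAP12), which recruits the kinase SYK. In models of neurodegeneration, microglia that engage this pair lower their homeostatic genes and raise genes for phagocytosis, lysosomes and lipid handling. Trem2, Tyrobp and Cd9 are already abundant in healthy microglia, whereas Cst7, Itgax, Clec7a, Spp1, Axl, Gpnmb and Lgals3 are known as genes that come on with the state. Several are not private to microglia: Itgax is also made by dendritic cells, Lgals3 by monocytes and macrophages, and Cst7 by natural killer cells.

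Promoter windows, from 250 bases before to 50 after the start site, were taken from RefSeq (GRCm38.p6) and matched 9 of the 10 genes; Tyrobp is named only. They were searched on both strands for GGAAGT and GAGGAA, parts of the element bound by PU.1. The other motifs were CACGTG and CATGTG, E-boxes of the kind bound by the MiT/TFE and BHLHE40 factors, and TGANTCA, with N any base. TGANTCA is looser than the AP-1 element, which has C or G at N. GGAAGT and GAGGAA can overlap each other and did so in the Spp1 window. TGANTCA stood in 4 of the 9 windows (Trem2, Cst7, Itgax and Gpnmb) and in 7.81% of 32851 mouse promoter windows of the same length. The matches were TGAATCA in Trem2, TGATTCA in Cst7, TGAGTCA in Itgax and TGACTCA in Gpnmb. Only those in Itgax and Gpnmb have the AP-1 form, and the 7.81% counts any base at N. GGAAGT stood in 3 of 9 (23.8% of all windows), GAGGAA in 4 (28.3%), CATGTG in 1 (14.2%) and CACGTG in 0 (7.15%). These matches are letters in a window and show no binding.

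The windows with TGANTCA are printed because that pattern is the one the members share most often relative to all promoters. Cd9 is added because, of the members, its level followed that of Trem2 most closely. All read 5′ to 3′ along the gene, with motif matches in capitals. Trem2 lies at chr17:48346151-48346450 (plus strand), Cst7 at chr2:150570165-150570464 (plus), Itgax at chr7:128129300-128129599 (plus), Gpnmb at chr6:49036268-49036567 (plus) and Cd9 at chr6:125494711-125495010 (minus). The first base of TGANTCA falls at position -9 from the start site in Trem2, -6 in Cst7, -56 in Itgax and 8 in Gpnmb. The only match in Cd9 is CATGTG at -38.
Trem2: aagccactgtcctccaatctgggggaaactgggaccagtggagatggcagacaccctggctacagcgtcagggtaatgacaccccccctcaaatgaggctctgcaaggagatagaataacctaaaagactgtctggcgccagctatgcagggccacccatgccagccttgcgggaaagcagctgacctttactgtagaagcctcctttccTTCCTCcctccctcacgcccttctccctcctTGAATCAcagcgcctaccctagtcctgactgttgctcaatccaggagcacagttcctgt
Cst7: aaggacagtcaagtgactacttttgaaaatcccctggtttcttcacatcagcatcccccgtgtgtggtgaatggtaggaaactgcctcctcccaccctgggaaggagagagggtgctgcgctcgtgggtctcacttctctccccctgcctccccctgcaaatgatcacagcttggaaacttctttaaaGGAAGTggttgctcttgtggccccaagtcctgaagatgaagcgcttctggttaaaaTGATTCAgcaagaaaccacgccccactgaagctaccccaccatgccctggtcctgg
Itgax: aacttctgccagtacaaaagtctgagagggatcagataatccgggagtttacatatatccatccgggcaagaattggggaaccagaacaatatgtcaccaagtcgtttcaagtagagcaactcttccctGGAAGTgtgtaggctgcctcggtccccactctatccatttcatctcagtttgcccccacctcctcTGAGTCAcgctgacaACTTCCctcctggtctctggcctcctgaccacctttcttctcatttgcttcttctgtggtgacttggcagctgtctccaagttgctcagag
Gpnmb: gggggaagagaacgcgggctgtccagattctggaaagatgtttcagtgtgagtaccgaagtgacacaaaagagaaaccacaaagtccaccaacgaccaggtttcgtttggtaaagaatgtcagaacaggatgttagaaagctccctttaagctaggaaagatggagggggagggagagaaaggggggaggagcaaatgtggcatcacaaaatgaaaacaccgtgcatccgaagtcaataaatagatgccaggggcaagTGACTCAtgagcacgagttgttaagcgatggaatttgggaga
Cd9: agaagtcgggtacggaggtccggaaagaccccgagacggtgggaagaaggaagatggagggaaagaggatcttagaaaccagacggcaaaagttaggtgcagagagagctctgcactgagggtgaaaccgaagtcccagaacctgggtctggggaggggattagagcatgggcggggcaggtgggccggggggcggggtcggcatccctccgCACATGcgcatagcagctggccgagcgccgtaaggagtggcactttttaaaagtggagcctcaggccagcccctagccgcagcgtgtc

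Library totals ran from 54970954 to 94827095 counts. Of the 10 microglial marker genes listed (P2ry12, Tmem119, Cx3cr1 and others), 10 were in the table and none was at 0 throughout a group; their summed level in CPM (read counts scaled to a common library size) was 49697 to 63487 in the Saline libraries, 41655 to 61981 in Maintenance and 52663 to 61290 in Abstinence. The libraries labelled Maintenance 6, 7 and 8 stood apart: Maintenance 6 and 7 had the fewest genes detected (12459 and 12740, against 14727 to 17034 in the other libraries), and in Maintenance 8 the summed choroid plexus and ependymal markers reached 75583 CPM, against at most 358 CPM in Saline and Abstinence. The second deposited table lists 17 of the libraries and leaves out these 3 and Saline 5, 6 and 8. Values without Maintenance 6, 7 and 8 are given beside the fold changes of the 10 genes that involve Maintenance and beside the calls in the lists of related genes. The labels give the tissue as neuronal and the cell type as microglia. Summed neuronal markers were 25.7 to 126 CPM in Saline, 31.8 to 378 in Maintenance and 38.6 to 125 in Abstinence. The 378 CPM was in Maintenance 8. Among those markers, Ppp1r1b averaged 59.6 ± 125 CPM in Maintenance (SD), 14.4 ± 5.56 in Saline and 18.1 ± 3.53 in Abstinence.

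The 10 genes fell into 2 tiers. Per kb of the principal transcript, Trem2 averaged 1924 ± 181 CPM in Saline (SD, n = 8), Tyrobp 1887 ± 180 and Cd9 1057 ± 108, whereas Clec7a averaged 36.2 ± 12.1, Lgals3 9.70 ± 8.57, Cst7 7.38 ± 1.25, Spp1 5.40 ± 2.72, Axl 2.19 ± 0.55, Itgax 1.05 ± 0.48 and Gpnmb 0.13 ± 0.26. Trem2 and Tyrobp overlapped across the Saline libraries and could not be ordered. Cd9 lay below both in Saline, but its range overlapped that of Tyrobp in Maintenance and Abstinence. Clec7a lay below Cd9 in each group with no overlap. From Clec7a down, each gene overlapped the next in Saline. In Maintenance and Abstinence Spp1 stood above Lgals3 by mean, with overlapping ranges. The order within a tier depends on the gene model: per kb of all annotated exons, Trem2 was at 423 ± 40 CPM, below Cd9 at 635 ± 65 and Tyrobp at 1595 ± 152, and Clec7a at 9.70 ± 3.24 was beside Lgals3 at 7.41 ± 6.54. Without regard to length, Trem2 ranked 56, Cd9 93 and Tyrobp 131 by mean level among the 16121 genes tested, while Gpnmb ranked 12421.

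**Figure D1:**
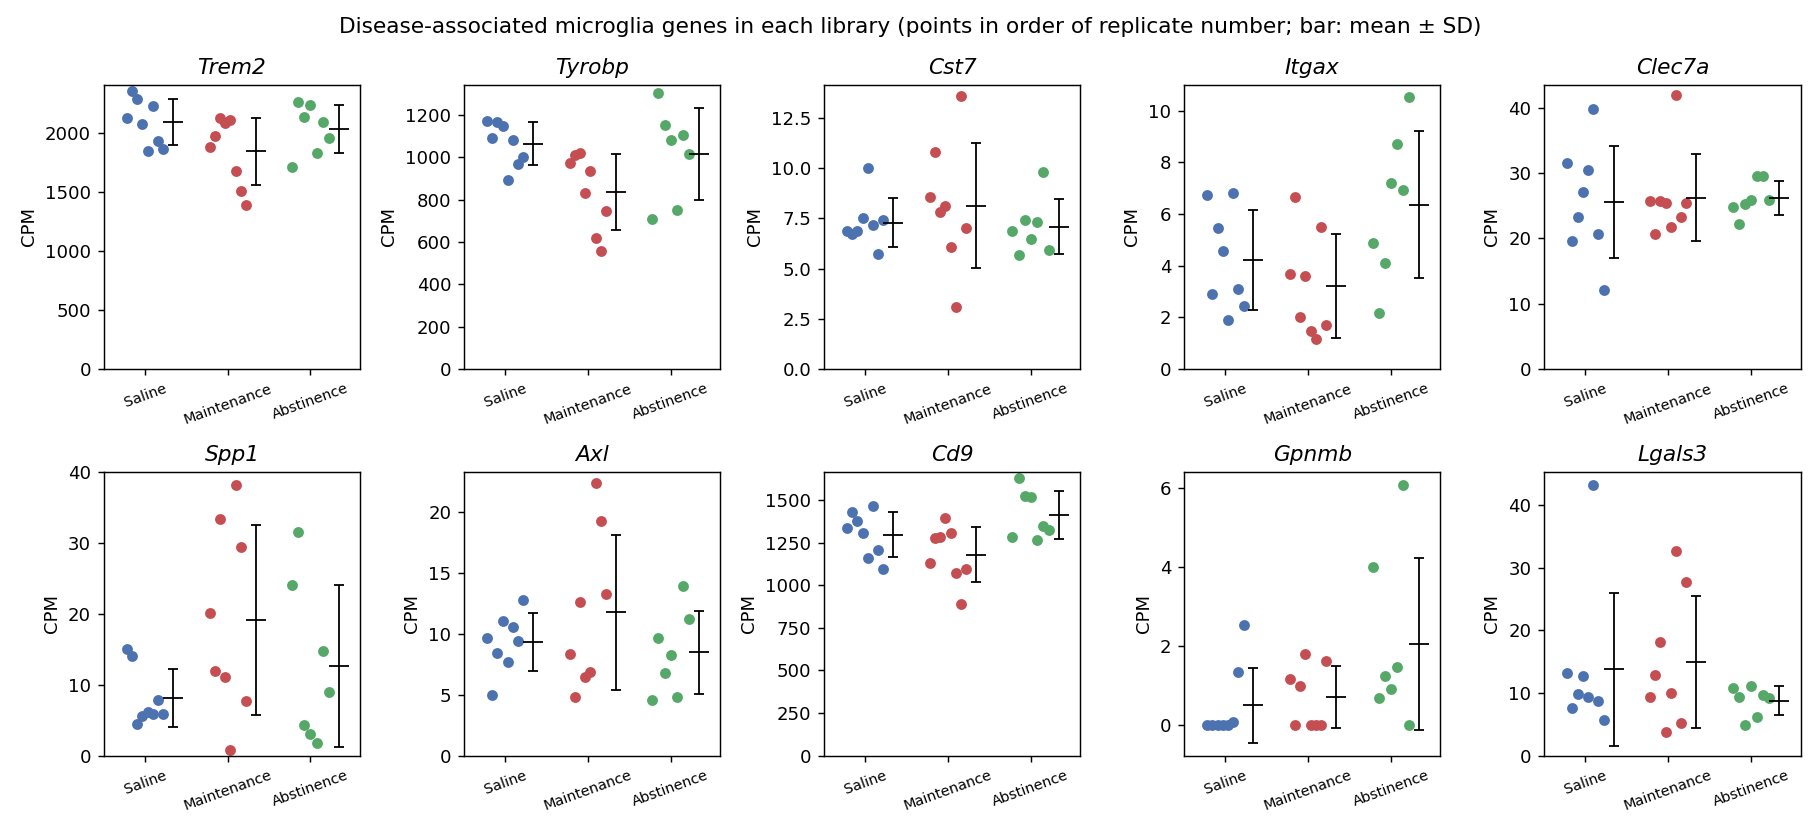
Level of each of the 10 genes in CPM (vertical axis from 0 except Gpnmb, whose SD bars pass below 0) in the Saline, Maintenance and Abstinence libraries; points are libraries, the bar beside them is the mean with its SD. The 3 groups overlap for every gene; Spp1 spans 0.823 to 38.2 CPM within Maintenance alone, and Saline 6 stands out for Lgals3 at 43.3 CPM.

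No member passed in any comparison. With edgeR's quasi-likelihood test and Benjamini-Hochberg adjustment over 16121 genes, 0 of 10 members were called in Maintenance against Saline (0.707% of all genes were called), 0 of 10 in Abstinence against Saline (0.0186%) and 0 of 10 in Abstinence against Maintenance (0.949%). At an unadjusted p under 0.05 the counts were 3 of 10 (11.8% of all genes), 0 of 10 (4.39%) and 3 of 10 (11%). The edgeR counts of called members were also 0 without Maintenance 6, 7 and 8. DESeq2 called 1 member, Cd9 in Abstinence against Maintenance. The median log2 fold change of the 10 members was 0.08, -0.0031 and 0.07 in these comparisons, beside 0.01 over all genes in each. The comparisons share groups in pairs, so they are not independent of each other. No member separated 2 groups without overlap, which 0.416%, 0.198% and 0.403% of all genes did.

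**Figure D2:**
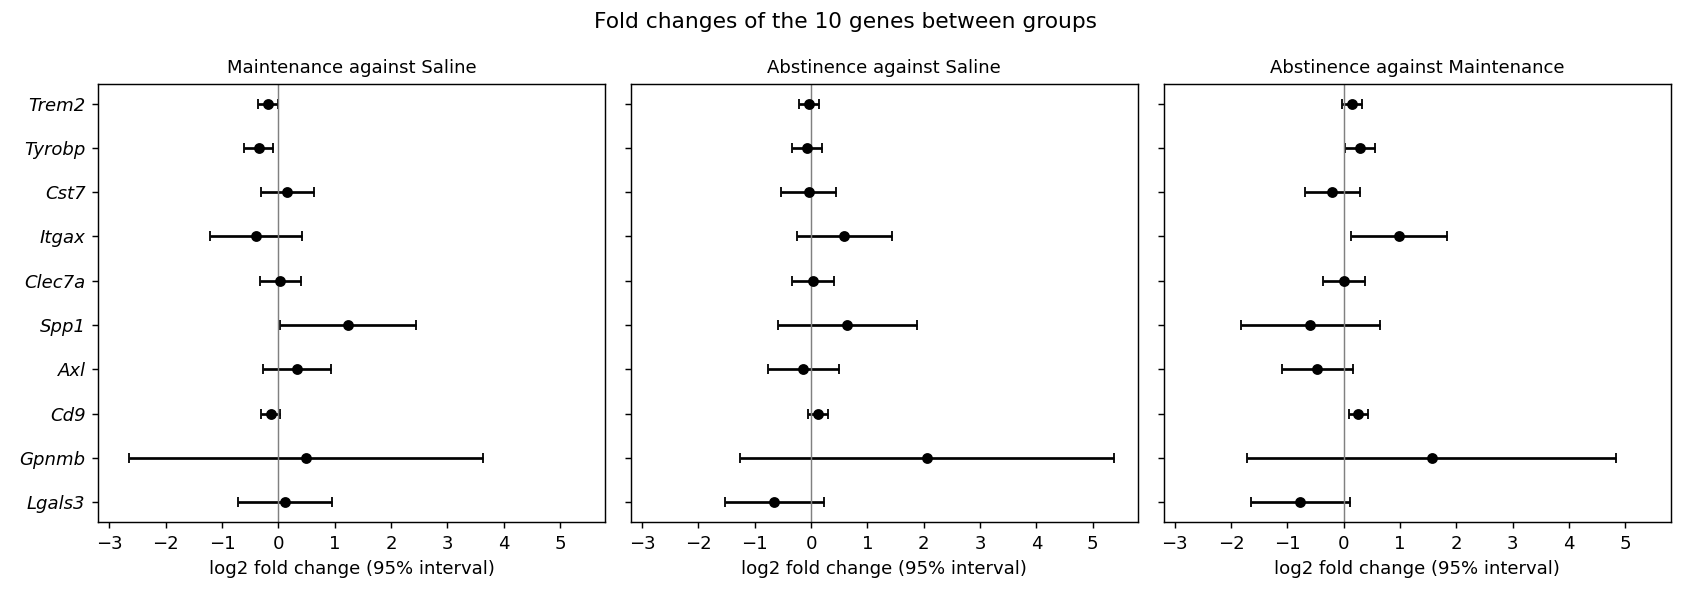
Log2 fold change (horizontal axis) of each of the 10 genes (vertical axis) with its 95% interval, in Maintenance against Saline, Abstinence against Saline and Abstinence against Maintenance. The intervals of Trem2, Tyrobp and Cd9 are narrow, those of Spp1 and Gpnmb wide, and the line at 0 marks no change.

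Trem2 (chr17:48346401-48354147, plus strand, 5 exons, GRCm38) ran from 1852 CPM in Saline 5 to 2362 in Saline 2 with a median of 2105, from 1390 in Maintenance 8 to 2131 in Maintenance 3 with a median of 1930, and from 1718 in Abstinence 1 to 2263 in Abstinence 2 with a median of 2099. The Maintenance libraries reached lower than any Saline library only in Maintenance 6, 7 and 8. Mean levels were 2093 ± 196, 1847 ± 287 and 2036 ± 206 CPM (SD, n = 8, 8 and 7). Maintenance was 0.882-fold of Saline (95% interval 0.782 to 0.996, edgeR adjusted p = 0.395), and without Maintenance 6, 7 and 8 the log2 fold change went from -0.18 to -0.04. In bulk libraries, fewer cells of a type and less RNA per cell cannot be told apart. Abstinence was 0.973-fold of Saline (0.858 to 1.10), an interval that leaves out a change of 1.2-fold or more in either direction.

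Tyrobp (chr7:30413760-30417585, plus strand, 5 exons), the adapter that carries the TREM2 signal, ran from 893 CPM in Saline 5 to 1171 in Saline 1 (median 1085), from 559 in Maintenance 7 to 1020 in Maintenance 3 (median 884) and from 707 in Abstinence 1 to 1305 in Abstinence 2 (median 1080). All 8 Maintenance libraries held less than the median Saline library, although the groups overlapped. Maintenance averaged 837 ± 179 CPM against 1064 ± 102 in Saline, 0.787-fold (0.658 to 0.941, edgeR adjusted p = 0.215). Without Maintenance 6, 7 and 8 the log2 difference went from -0.35 to -0.16. Abstinence averaged 1017 ± 216 CPM, 1.21-fold of Maintenance (1.01 to 1.46, adjusted p = 0.412), with Abstinence 1 and 5 as low as the lower Maintenance libraries. Without Maintenance 6, 7 and 8 that comparison was 1.06-fold, a log2 fold change of 0.084 in place of 0.28 (edgeR adjusted p = 0.937).

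Cd9 (chr6:125460266-125494791, minus strand, 8 exons), a tetraspanin that organises adhesion receptors and integrins in the membrane, had the smallest p of any member. Its level was 1096 CPM in Saline 8 to 1468 in Saline 6 (median 1320), 889 in Maintenance 7 to 1392 in Maintenance 4 (median 1204) and 1265 in Abstinence 5 to 1629 in Abstinence 2 (median 1349). All 7 Abstinence libraries lay above the Maintenance median, and 3 of them, Abstinence 2, 3 and 4, above every other library of the 3 groups. Abstinence averaged 1414 ± 142 CPM against 1180 ± 164 in Maintenance, 1.20-fold (1.06 to 1.35, edgeR adjusted p = 0.148). DESeq2 gave a log2 fold change of 0.25 with an adjusted p of 0.0495. Without Maintenance 6, 7 and 8 the log2 fold change was 0.14 (adjusted p = 0.534), against 0.26 with them. Against Saline, Abstinence was 1.09-fold (0.966 to 1.23). Cd9 overlaps Gm28809 and Gm26728 on the other strand, and the strand of the reads is not given in the sources used here; Gm26728 averaged 0.0796 CPM.

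Clec7a (chr6:129461591-129472779, minus strand, 5 exons), the beta-glucan receptor dectin-1, averaged 25.6 ± 8.56 CPM in Saline, 26.3 ± 6.66 in Maintenance and 26.2 ± 2.64 in Abstinence. Its lowest and highest libraries were Saline 8 (12.0 CPM) and Maintenance 6 (42.0 CPM), with Saline 6 close to the latter at 39.8 CPM. Maintenance was 1.03-fold of Saline (0.799 to 1.32) and Abstinence 0.997-fold of Maintenance (0.769 to 1.29). These intervals leave out a change of 1.5-fold in either direction. Both fold changes turned without Maintenance 6, 7 and 8, to log2 values of -0.10 and 0.13.

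Axl (chr7:25757273-25788705, minus strand, 20 exons), a receptor tyrosine kinase that takes up apoptotic cells through the bridging ligand Gas6, ran from 4.99 CPM in Saline 2 to 12.8 in Saline 8 (median 9.58), from 4.83 in Maintenance 2 to 22.5 in Maintenance 6 (median 10.5) and from 4.61 in Abstinence 1 to 14.0 in Abstinence 6 (median 8.29). Maintenance 6, 7 and 8, at 22.5, 19.3 and 13.3 CPM, were the highest of their group. Maintenance was 1.26-fold of Saline (0.829 to 1.92, edgeR adjusted p = 0.75), and without those 3 libraries the log2 fold change turned from 0.33 to -0.25.

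Itgax (chr7:128129547-128150657, plus strand, 30 exons), the CD11c subunit of complement receptor CR4, was one of the lowest members, and its 3 highest libraries were in Abstinence. Saline libraries held 1.88 to 6.80 CPM (median 3.83), Maintenance 1.17 to 6.65 (median 2.80) and Abstinence 2.17 to 10.5 (median 6.91). Those 3, Abstinence 4, 5 and 7, were the only ones above 7 CPM, while Abstinence 2 was among the lower libraries of the series, and 6 of 7 Abstinence libraries lay above the Maintenance median. Abstinence averaged 6.36 ± 2.85 CPM against 3.22 ± 2.01 in Maintenance, 1.98-fold (1.10 to 3.56, edgeR adjusted p = 0.341), and 1.82-fold without Maintenance 6, 7 and 8. Against Saline at 4.23 ± 1.94 CPM the log2 fold change was 0.59 (-0.26 to 1.43, edgeR adjusted p = 0.999).

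Spp1 (chr5:104435118-104441050, plus strand, 6 exons), which encodes the secreted matrix protein osteopontin, was the most variable member detected in every library. It spanned 46.4-fold over the 23 libraries, from 0.823 CPM in Maintenance 5 to 38.2 in Maintenance 6, and both ends lay in 1 group. Saline ran from 4.49 CPM in Saline 3 to 15.1 in Saline 1 (median 6.05), Maintenance had a median of 16.1 CPM, and Abstinence ran from 1.80 in Abstinence 5 to 31.6 in Abstinence 2 (median 9.02). The 6 Saline libraries other than Saline 1 and 2 held under 8 CPM, while Maintenance 1, 3, 6 and 7 and Abstinence 1 and 2 held more than 20 CPM. Maintenance averaged 19.1 ± 13.4 CPM against 8.13 ± 4.10 in Saline, 2.35-fold (1.02 to 5.43, edgeR adjusted p = 0.408), and 7 of 8 Maintenance libraries were above the Saline median. Without Maintenance 6, 7 and 8 the log2 fold change was 0.93 in place of 1.23. Abstinence averaged 12.7 ± 11.4 CPM, 1.56-fold of Saline (0.664 to 3.66). The coefficients of variation of Saline, Maintenance and Abstinence were 50.4%, 70.1% and 90.3%.

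Cst7 (chr2:150570415-150578944, plus strand, 4 exons), which encodes cystatin F, an inhibitor of lysosomal cathepsins, spread most within Maintenance. Means were 7.28 ± 1.23 CPM in Saline, 8.14 ± 3.12 in Maintenance and 7.07 ± 1.37 in Abstinence. Its extremes, 3.09 CPM in Maintenance 6 and 13.6 in Maintenance 7, both came from the Maintenance group; the Saline libraries lay between 5.72 and 10.0 CPM and the Abstinence libraries between 5.66 and 9.79. Maintenance was 1.12-fold of Saline (0.807 to 1.55; 1.13-fold without Maintenance 6, 7 and 8) and Abstinence 0.971-fold of Saline (0.694 to 1.36).

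Lgals3 (chr14:47367751-47386160, plus strand, 6 exons), which encodes galectin-3, a sugar-binding protein released by activated phagocytes, had 3 libraries far above the rest. Saline 6 held 43.3 CPM, Maintenance 6 held 32.6 and Maintenance 8 held 27.7, while the next were Maintenance 3 at 18.2 and Saline 1 at 13.1 CPM. Medians were 9.57 CPM in Saline, 11.4 in Maintenance and 9.38 in Abstinence, whose libraries stayed between 4.92 and 11.1 CPM and below the Maintenance median in 7 of 7. Abstinence was 0.586-fold of Maintenance (0.319 to 1.08, edgeR adjusted p = 0.559). It was 0.804-fold without Maintenance 6, 7 and 8 (edgeR adjusted p = 0.933), and Abstinence 1 and 4 lay above the median of Maintenance 1 to 5, 10.0 CPM. Without Saline 6, the log2 fold change of Maintenance against Saline was 0.65 (adjusted p = 0.545) in place of 0.12, and without Maintenance 6, 7 and 8 it was -0.35.

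Gpnmb (chr6:49036546-49070929, plus strand, 11 exons), a lysosomal membrane glycoprotein of lipid-laden phagocytes, was the lowest member. It was either at 0 counts or, Saline 6 aside, well above the counting limit. It had 0 counts in 5 of 8 Saline libraries, 4 of 8 Maintenance libraries and 1 of 7 Abstinence libraries, where 3 counts, the limit a count of 0 allows, came to 0.0338 to 0.0551 CPM. The detected libraries reached 2.53 CPM in Saline 8, 1.80 in Maintenance 4 and 6.07 in Abstinence 6. In counts, Abstinence libraries held 0, 63, 69, 88, 122, 291 and 557 reads, and the Saline libraries with any held 5, 111 and 198. Such limits cover counting error only. Mean levels were 0.49 ± 0.95, 0.69 ± 0.78 and 2.05 ± 2.17 CPM, and the interval of Abstinence against Saline, 0.416 to 41.6-fold, spanned both directions (edgeR adjusted p = 0.999).

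The 3 abundant members moved together from library to library. After the group mean was taken off log2 CPM, Trem2 and Cd9 correlated at r = 0.86 and rho = 0.90 over 23 libraries (permutation test within groups, adjusted p = 0.00045 for each over 45 pairs, the smallest that 100000 permutations and this adjustment can give). Trem2 and Tyrobp reached r = 0.79 and rho = 0.75 (permutation test, adjusted p = 0.0018 and 0.006), and Tyrobp and Cd9 r = 0.76 and rho = 0.70 (0.00113 and 0.006). Without the 2 libraries farthest from the median these were r = 0.91, 0.81 and 0.67, and within Saline, Maintenance and Abstinence alone Trem2 and Cd9 gave r = 0.94, 0.82 and 0.88. Of 45 pairs only these 3 passed; the other 42 ran from rho = -0.35 (Cst7 and Lgals3) to 0.50 (Clec7a and Lgals3, r = 0.59, permutation adjusted p = 0.0989). The genes share a library and its scaling.

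Genes of similar pattern were ranked by rho on the same values. Among 7762 genes with mean log2 CPM of at least 3, the levels most like Trem2 belonged to Gpr34 (rho = 0.96), a microglial receptor of the homeostatic set, and Aif1 (0.92), which encodes the microglial protein IBA1; Cd9 stood at rank 4 and Tyrobp at rank 108. Nearest to Cd9 were Gpr34 (0.91) and Trem2 (0.90), and nearest to Tyrobp were Ptpn18 (0.94) and Rpl37 (0.93), a ribosomal protein gene. For the other members the highest values ran from 0.66 to 0.77, for Cst7 with Spata2l and Aqr, Itgax with Ypel2 and Fbrs, Clec7a with Hcar2 and Sephs2, Spp1 with Ddx26b and Klf2, Axl with Oxsr1 and Oxsm, Gpnmb with Yeats4 and Med24, and Lgals3 with Zc3h10 and Spns1. These ranks are descriptions, with no test.

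**Figure D3:**
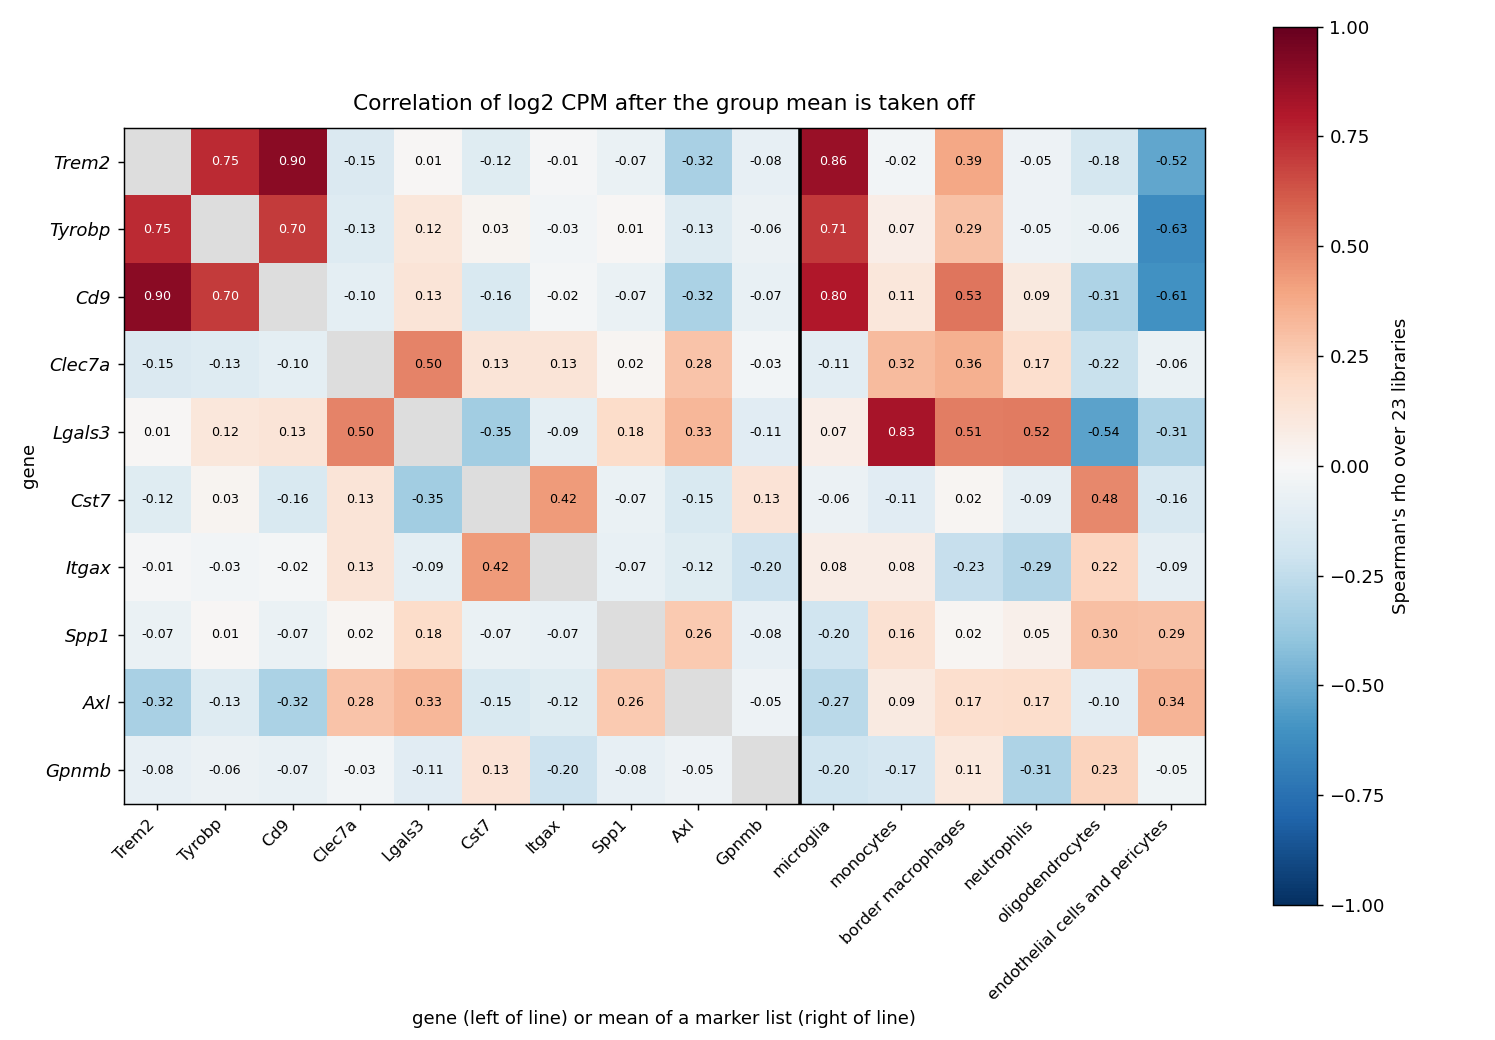
Spearman's rho over 23 libraries of log2 CPM less its group mean, between the 10 genes (left of the line) and between each gene (rows) and the mean of 6 marker lists (right of the line). Trem2, Tyrobp and Cd9 form 1 block with each other and the microglia list, and Lgals3 stands with the monocytes list at 0.83.

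The abundant members also followed the mean of the microglia list, which holds Gpr34, the gene nearest to Trem2 and Cd9. Lgals3 followed the mean of the monocytes list. Of 130 relations between a member and the mean log2 CPM of a marker list, 6 passed with both r and rho. Trem2 followed the microglia list at r = 0.88 and rho = 0.86 (permutation test, adjusted p = 0.0013 and 0.000433), Cd9 at r = 0.73 and rho = 0.80, and Tyrobp at r = 0.68 and rho = 0.71. Without the 2 farthest libraries these were r = 0.82, 0.76 and 0.72. The microglia list was lowest in Maintenance 8 (11.16), Maintenance 6 (11.28) and Saline 8 (11.37), followed by Maintenance 7 and Saline 5 (11.39 each), and its group means of 11.56, 11.44 and 11.55 did not pass (exact permutation test, Maintenance against Saline adjusted p = 0.343). Expressed relative to that list, log2 Trem2 in the Saline, Maintenance and Abstinence libraries was -0.53 ± 0.06, -0.61 ± 0.12 and -0.57 ± 0.07; Tyrobp was -1.51 ± 0.10, -1.76 ± 0.26 and -1.59 ± 0.24; and Cd9 was -1.22 ± 0.05, -1.25 ± 0.19 and -1.09 ± 0.05. This ratio was chosen after the values were seen and carries no test. Tyrobp and Cd9 passed also with the dendritic cell list (rho = 0.71 and 0.69). That list shares Siglech with the microglia list, and the part of Siglech in these relations was not tested.

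Lgals3 followed the monocytes list (Ccr2, Ly6c2, Plac8 and others, 10 of 10 in the table) at r = 0.79 and rho = 0.83 (permutation test, adjusted p = 0.00325 and 0.000433), at r = 0.72 without the 2 farthest libraries, and at r = 0.88, 0.79 and 0.76 within Saline, Maintenance and Abstinence. Saline 6, the highest for Lgals3, was also the highest for that list, at 3.94 log2 CPM. Maintenance 7, with 5.18 CPM of Lgals3 and 12740 genes detected, was the lowest for it at -0.65. Other libraries followed it less closely. Maintenance 6, with 32.6 CPM of Lgals3, was at 1.64 for that list, and Abstinence 1, with 10.9 CPM, was at 3.23. The summed monocyte markers ranged over 683 to 1065 CPM in Saline, 835 to 1047 in Maintenance and 729 to 1078 in Abstinence, and none of the 10 was at 0 throughout a group. Most of that sum was Nr4a1, an immediate early gene that is not private to monocytes, at 638 to 996, 622 to 1010 and 700 to 1031 CPM. The other 9 summed to 45.1 to 176 CPM in Saline, highest in Saline 6, to 31.7 to 242 in Maintenance, highest in Maintenance 8, and to 26.6 to 97.3 in Abstinence. After Maintenance 8, the library with 75583 CPM of choroid plexus and ependymal markers, the next in Maintenance held 78.3 CPM. Among those 9, Ace averaged 27.5 ± 73.1 CPM in Maintenance, 2.31 ± 0.77 in Saline and 1.93 ± 1.54 in Abstinence. What part of the sum in Maintenance 8 came from monocytes was not tested. The mean of the monocytes list was 2.55 in Saline and 1.12 in Maintenance (exact permutation test, adjusted p = 0.0545 over 39 tests of 13 lists, of which 0 passed). The neutrophils list had means of 1.76 in Saline, -0.87 in Maintenance and -1.16 in Abstinence. Both of its comparisons with Saline had the same adjusted p of 0.0545 by that test. Lgals3 gave rho = 0.52 with the neutrophils list, which did not pass. The part of monocyte RNA in the level of Lgals3 was not tested. Itgax gave rho = -0.15 with the dendritic cell list and Cst7 gave -0.21 with the list of lymphocytes and natural killer cells, and neither passed.

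**Figure D4:**
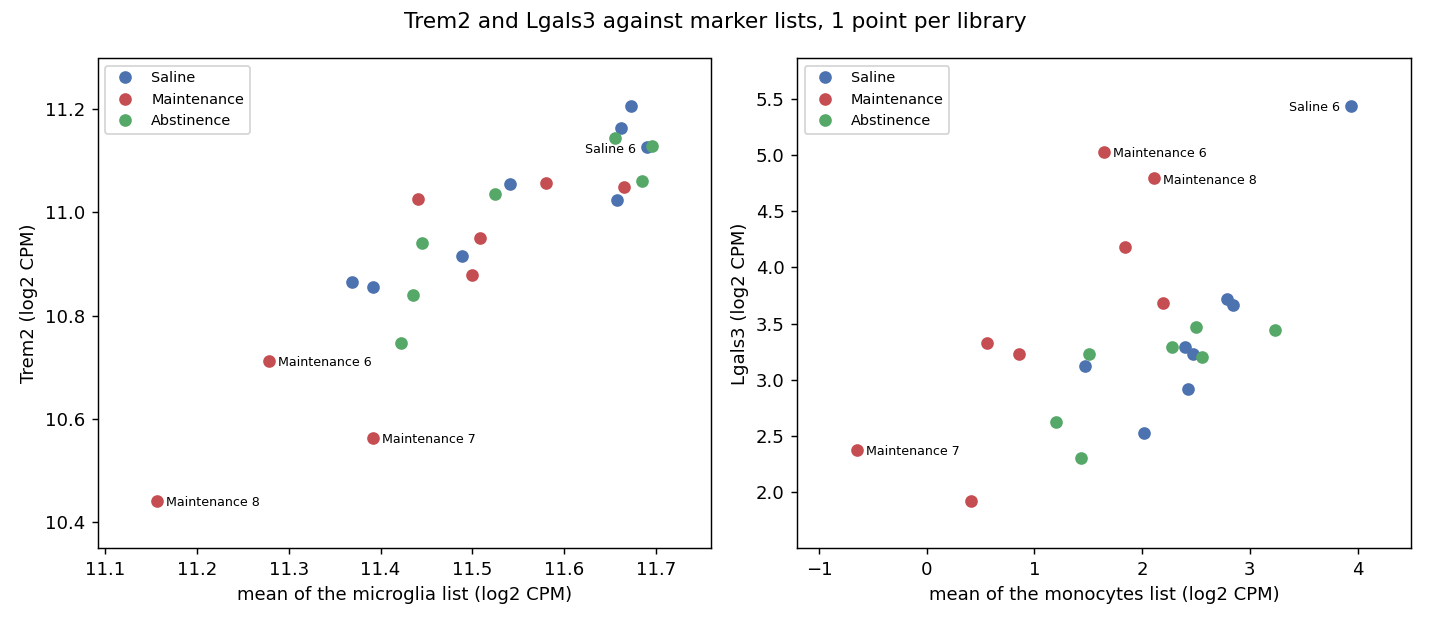
Left, Trem2 against the mean of the microglia list; right, Lgals3 against the mean of the monocytes list; both axes in log2 CPM, 1 point per library, coloured by group. Maintenance 6, 7 and 8 hold the 3 lowest Trem2 values of all libraries, and Saline 6 is highest on both axes of the right panel.

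With all libraries, no listed gene around TREM2 signalling passed. Over all genes, 0.707% were called in Maintenance against Saline, 0.0186% in Abstinence against Saline and 0.949% in Abstinence against Maintenance. At such shares, 0 called in a list this short says little about the list. Of 26 listed partners, such as the kinases Syk, Btk and Lyn, the lipase Plcg2 and the sheddases Adam10 and Adam17, 0 were called in each comparison. The smallest p-values belonged to Ptpn6, which encodes the phosphatase SHP-1 (350 ± 32 CPM in Saline, 288 ± 38 in Maintenance, log2 fold change -0.28, edgeR adjusted p = 0.0823), and Blnk, an adapter downstream of SYK (247 ± 20 CPM in Abstinence against 313 ± 60 in Maintenance, -0.34, adjusted p = 0.0883). Blnk was called as lower in Abstinence than in Maintenance once Maintenance 6, 7 and 8 were left out (-0.42, edgeR adjusted p = 0.0109), and no other partner was called in any comparison of that fit. Of 26 transcription factors linked to the state, among them Spi1, which encodes PU.1, and Mitf, 0 were called in each comparison. Junb, an AP-1 subunit, stood at 2741 ± 402, 2258 ± 429 and 2924 ± 500 CPM in Saline, Maintenance and Abstinence (Abstinence against Maintenance 0.37, adjusted p = 0.135), and Bhlhe40 at 15.0 ± 5.99, 24.4 ± 11.7 and 12.4 ± 5.15 CPM (-0.98, adjusted p = 0.147).

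Among 31 ligands, receptors and partners of the other members, 1 was called. It was called in Maintenance against Saline (0.707% of all genes) and in Abstinence against Maintenance (0.949%). Lgals9, which encodes galectin-9, another sugar-binding protein of the family of Lgals3, fell in Maintenance from 463 ± 35 to 372 ± 41 CPM (log2 fold change -0.32 ± 0.07 SE, edgeR adjusted p = 0.0261) and stood at 470 ± 42 CPM in Abstinence, above Maintenance by 0.34 ± 0.07 (adjusted p = 0.0144). With Maintenance 6, 7 and 8 left out these log2 fold changes were -0.25 and 0.27 (edgeR adjusted p = 0.114 and 0.071). The remaining 30, including Gas6, Mertk, Cd44, Itgb2 and Cd63, were not called in any comparison.

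Among 38 further genes of the state that could be tested, 2 were called, in opposite directions. Both were called in Maintenance against Saline (0.707% of all genes) and in Abstinence against Maintenance (0.949%). Apoe, the lipid carrier that TREM2 binds, rose in Maintenance from 1488 ± 212 to 2075 ± 496 CPM (log2 fold change 0.48 ± 0.11 SE, edgeR adjusted p = 0.0456) and was lower in Abstinence at 1344 ± 169 CPM (-0.63 ± 0.12 against Maintenance, adjusted p = 0.00759). The difference from Maintenance to Abstinence was called in 33 of 33 alternatives, that from Saline to Maintenance in 15 of 33. Of these alternatives, 23 leave out 1 library each and share most of their data with the main fit, so they are not independent. Without Maintenance 6, 7 and 8 the 2 log2 fold changes of Apoe were -0.44 and 0.28 (edgeR adjusted p = 0.021 and 0.203). Gusb, the lysosomal enzyme beta-glucuronidase, fell in Maintenance from 249 ± 21 to 191 ± 27 CPM (-0.38 ± 0.08, adjusted p = 0.0145) and was at 239 ± 15 CPM in Abstinence (0.32 ± 0.08 against Maintenance, adjusted p = 0.0426, called in 10 of 33 alternatives). Without those 3 libraries these log2 fold changes of Gusb were -0.27 and 0.20 (edgeR adjusted p = 0.0859 and 0.202). The other 36, such as Lpl, Ctsb, Ctsd, Cd68, Fabp5 and Csf1, were not called. The median log2 fold change of the 38 was -0.02, -0.03 and 0.06 in Maintenance against Saline, Abstinence against Saline and Abstinence against Maintenance, and -0.0044, -0.04 and -0.0013 without those 3 libraries.

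Of 20 homeostatic genes, which fall in models where the state appears, 0 were called in each comparison. The shares over all genes were 0.707%, 0.0186% and 0.949%, so 0 of 20 says little about this list. The smallest p-values were in Abstinence against Maintenance, for Olfml3 at 1542 ± 243 against 1174 ± 176 CPM (log2 fold change 0.39, edgeR adjusted p = 0.0529) and Ltc4s at 334 ± 21 against 387 ± 32 CPM (-0.21, adjusted p = 0.115). Without Maintenance 6, 7 and 8, Ltc4s (-0.27, edgeR adjusted p = 0.0369) and Selplg, which encodes the adhesion ligand PSGL-1 (-0.26, adjusted p = 0.0373; named after its value was seen), were called as lower in Abstinence than in Maintenance. Fold changes were above 0 for 3 of the 20 in Maintenance against Saline (median log2 -0.12), 7 in Abstinence against Saline (-0.03) and 15 in Abstinence against Maintenance (0.05), beside 50.6%, 51.3% and 50.8% of all genes. Without the 3 libraries the counts were 6, 7 and 11, with medians of -0.04, -0.04 and 0.0073.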

How the data were processed

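RNA of striatal microglia was sequenced from 23 libraries made with a low-input kit, per the labels' protocols. The submitters' processing notes name the mouse build mm10 (GRCm38), the trimmers cutadapt 1.18 and Trim Galore 0.6.7, the aligner STAR 2.7.10a, and StringTie 2.1.5 beside DESeq2 1.38.3; strand and settings are not given in the sources used here. The authors deposited a table of whole-number read counts by gene symbol, used for all results, per the file headers; a second deposited table held equal counts for 17 libraries (0 of 611592 values differed). Genes were kept with edgeR's filterByExpr (minimum count 10, minimum total 15), which left 16121. TMM scaling and 1 quasi-likelihood fit of all 23 libraries with group as the only factor followed (edgeR 4.0.16, R 4.3.3), called at a Benjamini-Hochberg adjusted p under 0.05; a 95% interval is that of the fold change. The fit was tested on simulated data. CPM are TMM-scaled, and log2 CPM used a prior count of 2. Positions and transcript lengths are those of GENCODE for GRCm38.

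Correlations used log2 CPM less its group mean, with two-sided permutation within groups, and marker lists two-sided exact permutation tests. Named genes are the 10 members and, per list and comparison, up to 4 called genes, or the 2 of smallest p where none was; for likeness, the 2 genes of highest rho with no predicted symbol. Members, lists and the doubt about Maintenance 6, 7 and 8 were chosen with earlier results of these data known. Alternatives were DESeq2 1.42.0, voom with quality weights (limma 3.58.1), RLE or upper-quartile scaling, no filter or 1 CPM as the filter, fits of the compared groups alone or of the 17 libraries, a replicate block, and leaving out libraries.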

Additional observations from a re-analysis of the deposited data

Results flagged for a closer look

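Of 30 combinations of gene and group, 4 held a highest library far from the others of its group by Dixon's test at the 95% level, which chance alone gives in about 1 of 20 groups. Cst7 reached 10.0 CPM in Saline 5, where the next Saline library held 7.51 CPM, and 9.79 CPM in Abstinence 6, where the next held 7.41 CPM. Clec7a reached 42.0 CPM in Maintenance 6 against 25.8 CPM in the next Maintenance library. Lgals3 reached 43.3 CPM in Saline 6 against 13.1 CPM in the next Saline library; the same library was second highest for Clec7a. By mean log2 CPM it was also the highest of the 23 libraries for the monocyte and dendritic cell markers and the lowest for those of oligodendrocytes, astrocytes and choroid plexus, and its summed neutrophil markers, 957 CPM, were the highest, before 464 in the next. Their part in its Lgals3 level was not tested.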

How the results depend on the processing

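Of 30 fold changes (10 genes in 3 comparisons), 20 kept their direction in every alternative that gave a value, and 10, none called in any fit, turned in at least 1. The one called in an alternative was Cd9 in Abstinence against Maintenance, under DESeq2 (log2 fold change 0.25), so the count of members called there became 1. Leaving out 1 library at a time called 0 members in each comparison.

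Log2 fold changes that turned in Maintenance against Saline were, without Maintenance 6, 7 and 8, Lgals3 -0.35, Clec7a -0.10 and Axl -0.25; with the 17 libraries, Clec7a -0.031 and Axl -0.15; under voom, Lgals3 -0.00046, Clec7a -0.0047 and Axl -0.031. In Abstinence against Maintenance they were, without Maintenance 6, 7 and 8, Trem2 -0.0073, Clec7a 0.13 and Axl 0.11; with the 17 libraries, Trem2 -0.013, Clec7a 0.12 and Axl 0.10; under voom, Clec7a 0.0902 and Axl 0.055; with upper-quartile factors, Clec7a 0.0037. In Abstinence against Saline, Cst7 was 0.062 with the 17 libraries and Axl 0.024 under voom. With each library left out in turn, Clec7a ran from -0.093 to 0.16, from -0.079 to 0.15 and from -0.054 to 0.12 in Maintenance against Saline, Abstinence against Saline and Abstinence against Maintenance, Lgals3 from -0.15 to 0.65 in the first, and Cst7 from -0.15 to 0.029 and Tyrobp from -0.14 to 0.0053 in Abstinence against Saline. The cause was not tested.

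Over all genes, the calls in Maintenance against Saline, Abstinence against Saline and Abstinence against Maintenance were 114, 3 and 153. They became 349, 36 and 452 under DESeq2, 413, 208 and 340 under voom, 57, 5 and 64 with only the compared groups, and 176, 56 and 238 with the 17 libraries. The 1 CPM filter gave 6 and 242 in the last pair, and leaving out Maintenance 6, 7 and 8 gave 15 in Abstinence against Saline. Leaving out 1 library gave 42 (without Saline 3) to 197 (without Saline 8), 1 to 15 (without Saline 8) and 89 (without Abstinence 3) to 265 (without Maintenance 8). The marker lists that passed numbered 0, and 0 to 5 (without Saline 8) with 1 library left out.

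Replicate number as a block gave 69, 4 and 126 calls over all genes and 0 members in each comparison. Of 22 pairs of libraries with the same number, 4 correlated above 0.1 (range -0.264 to 0.183), so the numbers were not taken to pair the libraries. DESeq2 gave Gpnmb no adjusted p in Maintenance against Saline and in Abstinence against Maintenance. Gpnmb had 0 counts in 10 of 23 libraries.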
